A study of Mus musculus with 8 samples.

Results

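The genes described here are the 3 ligands (Tgfb1, Tgfb2 and Tgfb3), the 3 receptors (Tgfbr1, Tgfbr2 and Tgfbr3) and the 4 latent TGF-beta binding proteins (Ltbp1, Ltbp2, Ltbp3 and Ltbp4) of the TGF-beta pathway. They were taken by symbol from the gene count table, where each matched 1 Ensembl gene identifier, so that all 10 were found among 50686 genes. The samples were mouse embryonic stem cells (mESCs) of the genotypes R9wt (wild type) and R9del (Rad9-/-), cultured on a returnable satellite (Space) or on the ground (Ground) for 1 day (D1) or 5 days (D5). Each of the 8 combinations was sequenced as 1 library, so no condition had a replicate, and groups of 4 libraries were compared by location, genotype and culture duration. The ground cultures were kept in the same kind of payload and seeded with the same cell numbers. The space cultures differed from them by microgravity, radiation, the vibration of launch and return and other stresses of space flight, and these cannot be told apart. The D1 and D5 cultures occupied separate device groups with their own temperature control and different seeding numbers, so duration cannot be told apart from device group or seeding number. At D5, but not at D1, the R9del cultures were also seeded with more cells than the R9wt cultures, so that genotype and seeding number cannot be told apart at D5. The strain, the medium, the presence of feeder cells and the number of independent cell lines per genotype were not given in the sources used here. Loss of Rad9 and other differences between the cell lines therefore cannot be told apart at either duration.

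TGF-beta is secreted as an inactive complex. The propeptide of the ligand stays bound to the mature growth factor after cleavage, and latent TGF-beta binding proteins tether most such complexes to the fibrillin matrix until integrins, proteases or thrombospondin release the ligand. The free ligand is recognised by the type II receptor (Tgfbr2), which phosphorylates the type I receptor (Tgfbr1), and this kinase in turn phosphorylates Smad2 and Smad3. Betaglycan (Tgfbr3) has no kinase, presents the ligands to the signalling receptors and is known for its high affinity for TGF-beta 2. In mouse embryonic stem cells the neighbouring Nodal and activin branch of the family is the one best known to act through Smad2 and Smad3.

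Levels are given as CPM, the counts scaled to a common library total, with the totals adjusted by TMM factors, a trimmed mean correction for library composition. Library totals lay between 58238440 and 96416907 counts, and 3 counts, the upper limit for a gene without any count, corresponded to between 0.0335 and 0.0503 CPM, for counting error only. The lowest count of any of the 10 genes was 7 (Tgfb3 in Ground_R9del_D1), so all 10 were above that limit in every library and passed the filter on low counts. The deleted gene, Rad9a, was read first as a check of the labels: the R9del libraries held between 20.8 and 28.6 CPM and the R9wt libraries between 70.3 and 93.4 CPM (log2 fold change -1.77, SE 0.21, adjusted p = 0.0270 with edgeR's quasi-likelihood test). With single libraries left out, the adjusted p of Rad9a lay between 0.0348 and 0.105 in edgeR, under 0.05 in 4 of 8 fits. The defining pluripotency gene Pou5f1 lay between 958 and 1804 CPM and Nanog between 207 and 649 CPM in the 8 libraries. Markers of other cells differed between libraries. Summed over 8 trophoblast markers, Ground_R9wt_D5 and Space_R9wt_D5 held 1967 and 2902 CPM against 201 to 906 CPM in the other libraries, and Krt18, a keratin of simple epithelia, alone made up 1398 and 1790 CPM. Summed over 10 markers of primitive or parietal endoderm, Space_R9wt_D5 and Space_R9del_D5 held 2471 and 2799 CPM against 612 to 1104 CPM in the others. The sum of 14 fibroblast markers was 57.7 to 95.3 CPM in space and 38.6 to 81.0 CPM on the ground, higher in space in every matched pair. In each library 2 to 5 of them were at 0. The median log2 fold change in space of the 9 tested was 0.59, against 0.01 over all genes. By a fold change of at least 2 with an unadjusted p under 0.05, 2 were higher in space and 0 lower, against 2.58% higher over all genes. Thy1 (11.8 to 38.7 CPM), Fbln2 (5.11 to 16.5 CPM) and Col1a1 (3.85 to 10.4 CPM) were present in every library, whereas Dcn, Lum and Postn did not exceed 0.115 CPM. The sum of 12 pluripotency markers was between 5119 and 6626 CPM in space and between 5743 and 8608 CPM on the ground, with none at 0. Of the 12, Esrrb was higher in space (74.7 to 111 CPM against 34.8 to 47.7 CPM, log2 fold change 1.16) and Sox2 lower (84.6 to 125 CPM against 151 to 254 CPM, -0.97), both with an adjusted p under 0.05 in edgeR. The median over the 12 was -0.39.

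Levels of different genes can be compared only per length, here as CPM per kb of exon. Among the ligands, Tgfb1 had the highest mean over the 8 libraries (2.98 CPM per kb), followed by Tgfb2 (0.549) and Tgfb3 (0.166). Among the receptors the order of the means was Tgfbr3 (4.06), Tgfbr1 (3.08) and Tgfbr2 (0.431). Tgfbr3 and Tgfbr1 exchanged places between libraries, with Tgfbr3 above Tgfbr1 in the 4 space libraries and in Ground_R9wt_D5, so their order does not hold beyond the spread. Ltbp4 stood far above all other members at 25.6 CPM per kb, and its lowest library (17.8) was above the highest library of any other member (10.8, Tgfbr3 in Space_R9wt_D5). The remaining latent proteins had means of 1.61 (Ltbp3), 0.927 (Ltbp1) and 0.273 (Ltbp2) CPM per kb. The genes also differed in how much they varied. The highest library exceeded the lowest by 1.93-fold for Ltbp4 and Tgfbr1 and by 2.22-fold for Ltbp1, but by 19.9-fold for Tgfb1 and 22.6-fold for Tgfb2.

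**Figure D1:**
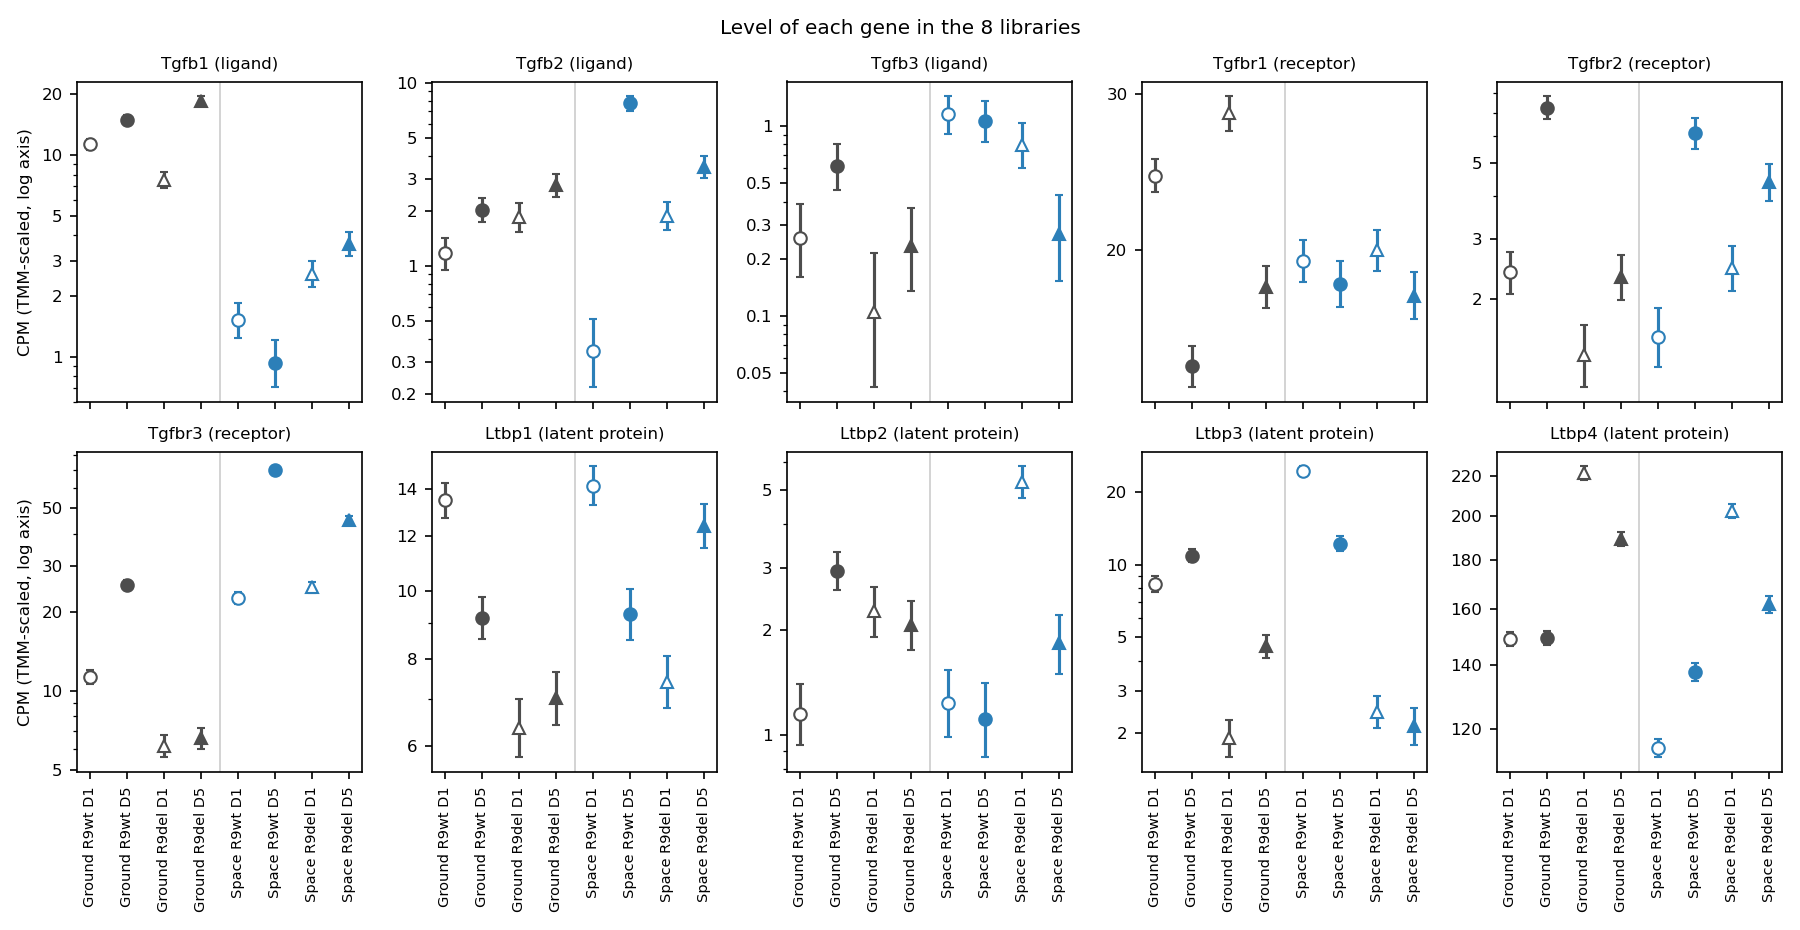
CPM of each gene (log axis, a different range in each panel) in the 8 libraries, with exact 95% Poisson intervals that cover counting error only. Grey is ground and blue is space, circles are R9wt and triangles R9del, open symbols D1 and filled symbols D5. The 4 space libraries of Tgfb1 sit between 0.934 and 3.64 CPM, all below the ground libraries, and the 4 R9del libraries of Ltbp3 sit between 1.90 and 4.59 CPM, all below the R9wt libraries.

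The members lie on 8 chromosomes of the mm9 genome, and none is clustered with another. Tgfb1 (ENSMUSG00000002603) is at chr7:26472021-26490096 on the plus strand with 7 exons, and Ltbp4 (ENSMUSG00000040488) begins about 1600.1 kb beyond its end at chr7:28090155-28122711 on the minus strand, with 35 exons. Ltbp3 (ENSMUSG00000024940) is at chr19:5740904-5758532 on the plus strand with 29 exons, and Tgfbr3 (ENSMUSG00000029287) at chr5:107535589-107718648 on the minus strand with 18 exons. The deleted gene, Rad9a, is on the same chromosome as Ltbp3, at chr19:4195198-4201603 on the minus strand. All counts are over whole genes, with no split by exon or untranslated region. Ltbp2 and Tgfb3 share chromosome 12 with 1180.2 kb between them. The window around a start site is of interest for the genes that differed most, so the sequences of Tgfb1 and Ltbp3 are shown with those of the paralogs Tgfb2 and Ltbp4 for contrast. They were taken from the RefSeq promoters of GRCm38.p6 (250 bases before to 50 bases after a start), a later build than that of the counts, which held 8 of the 10 members. Tgfb3 and Tgfbr3 were not among them. Sequences are written 5′ to 3′ on the strand of the gene, with the GC box GGGCGG and its reverse complement CCGCCC in capitals.
Tgfb1, chr7:25686752-25687051, plus strand: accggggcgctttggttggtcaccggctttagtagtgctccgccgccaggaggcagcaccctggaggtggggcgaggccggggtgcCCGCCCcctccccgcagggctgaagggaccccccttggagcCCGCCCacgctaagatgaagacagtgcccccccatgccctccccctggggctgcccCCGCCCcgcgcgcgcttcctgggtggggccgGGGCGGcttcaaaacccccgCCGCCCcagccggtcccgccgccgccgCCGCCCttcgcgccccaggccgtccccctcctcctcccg
Tgfb2, chr1:186705940-186706239, minus strand: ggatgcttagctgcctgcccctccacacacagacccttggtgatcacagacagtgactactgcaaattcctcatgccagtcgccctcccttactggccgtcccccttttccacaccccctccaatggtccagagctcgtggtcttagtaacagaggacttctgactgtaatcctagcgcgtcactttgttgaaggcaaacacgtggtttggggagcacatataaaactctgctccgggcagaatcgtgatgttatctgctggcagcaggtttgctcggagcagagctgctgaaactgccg
Ltbp3, chr19:5740650-5740949, plus strand: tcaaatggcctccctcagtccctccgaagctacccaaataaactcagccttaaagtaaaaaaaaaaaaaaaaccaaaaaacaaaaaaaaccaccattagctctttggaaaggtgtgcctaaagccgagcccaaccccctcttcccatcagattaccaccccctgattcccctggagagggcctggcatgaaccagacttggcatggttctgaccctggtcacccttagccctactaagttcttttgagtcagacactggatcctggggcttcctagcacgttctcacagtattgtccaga
Ltbp4, the first of 3 start sites listed, chr7:27337563-27337862, minus strand: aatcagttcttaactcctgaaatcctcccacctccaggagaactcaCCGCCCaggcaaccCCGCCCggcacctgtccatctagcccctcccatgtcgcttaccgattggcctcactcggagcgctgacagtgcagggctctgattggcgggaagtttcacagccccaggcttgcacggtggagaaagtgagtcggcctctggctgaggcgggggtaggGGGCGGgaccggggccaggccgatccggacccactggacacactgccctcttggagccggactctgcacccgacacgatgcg
The window of Tgfb1 held 6 matches to the GC box, 30 CpG dinucleotides and 77% G and C. That of Tgfb2 held no match, 10 CpG and 54.3% G and C. The paralogs among the latent proteins differed in the same features: 0 matches, 3 CpG and 48% for Ltbp3 against 3 matches, 19 CpG and 64.3% for the window of Ltbp4 shown. The other 2 windows of Ltbp4 in RefSeq held 7 and 9 matches, with 80.3% and 81.3% G and C. The feature does not set Ltbp3 apart: both windows of Ltbp1 also held 0 matches (58.7% and 50% G and C). That of Ltbp2 held 2 matches (61%). Among the receptors, the windows of Tgfbr1 held 2 and 0 matches and that of Tgfbr2 held 0. Over all 32851 promoter windows of the same length, 35.7% held at least 1 match and the median was 52.7% G and C. A match is a description of the letters and says nothing of binding.

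The comparison of space with ground asked which of the 10 genes differed in cells that had been in orbit. Tgfb1, the ligand with the highest level on the ground, was lower in every space library, and Tgfbr3 was higher in space in all 4 matched pairs without passing the adjusted threshold. No other member passed either threshold used here in edgeR's quasi-likelihood test without a block. These thresholds were an adjusted p under 0.05 or a fold change of at least 2 with an unadjusted p under 0.05. In some alternative fits Tgfb3 met the latter, with a higher level in space. In bulk RNA, fewer cells that express a gene and less RNA per cell cannot be told apart.

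On the ground Tgfb1 measured 11.3 CPM in R9wt D1, 14.9 CPM in R9wt D5, 7.51 CPM in R9del D1 and 18.6 CPM in R9del D5. In space the same conditions gave 1.52, 0.934, 2.59 and 3.64 CPM. The groups did not overlap. The mean was 2.17 ± 1.19 CPM in space (SD, n = 4) and 13.1 ± 4.76 CPM on the ground (SD, n = 4), a log2 fold change of -2.59 (SE 0.49) with an adjusted p of 0.0106 in edgeR's quasi-likelihood test across 20544 genes. Within the matched pairs Tgfb1 was 7.41-fold lower in R9wt D1, 16.0-fold lower in R9wt D5, 2.90-fold lower in R9del D1 and 5.10-fold lower in R9del D5. The log2 difference was smaller in size in R9del than in R9wt in both pairs of the same duration, but the interaction of location and genotype was not past the threshold (1.33, SE 0.72, adjusted p = 1, edgeR). An adjusted p under 0.05 with a lower level in space was found for 5.31% of all genes tested, so 1 of 10 members is near that background. A lower level without overlap of the groups was found for 9.38% of all genes, and a fold change of at least 2 with an unadjusted p under 0.05 in that direction for 8.39%.

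The call for Tgfb1 held in all 18 alternatives run for it (adjusted p at most 0.0424), with a log2 fold change between -2.96 and -1.92. GC content moved with the space comparison over the whole table. Annotated genes were placed in 5 equal bins by the most GC-rich window of 200 bases in their exons. In the richest bin the median log2 fold change was -0.36 and 17.3% of genes were called lower, against 0.02 and 2.08% in the poorest. Tgfb1 is in the richest bin, with a window of 78.5% G and C. After a correction of each library for its trend with window GC content, added after seeing the data, Tgfb1 was still lower (log2 fold change -2.16 and adjusted p = 0.0244 with edgeR), and after one on exon GC content as well (-1.92, adjusted p = 0.0410). Of the members, Tgfb1, Tgfb2, Tgfbr2, Ltbp1, Ltbp3 and Ltbp4 (6 genes) are in that bin, and of these Tgfb1 alone was called.

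Tgfb2 and Tgfb3 encode ligands that bind the same signalling receptors. Tgfb2 measured 1.17 CPM in R9wt D1, 2.03 in R9wt D5, 1.85 in R9del D1 and 2.76 in R9del D5 on the ground. The space libraries gave 0.343, 7.75, 1.88 and 3.47 CPM. The lowest and the highest value of Tgfb2 were both R9wt libraries from space, D1 and D5, and the groups overlapped (log2 fold change 0.78, SE 0.74, adjusted p = 0.656 with edgeR). Without Space_R9wt_D5 the log2 fold change was -0.042. Tgfb3 was scarce, at 0.256, 0.614, 0.105 and 0.232 CPM on the ground and 1.15, 1.06, 0.796 and 0.268 CPM in space in the same order. It was higher in space in all 4 pairs, from 1.15-fold in R9del D5 to 7.61-fold in R9del D1, but the latter rests on 7 counts against 56 (log2 fold change 1.43, SE 0.67, adjusted p = 0.289 with edgeR).

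The makeup of the ligands was also compared. Of the summed CPM per kb of the 3 ligands, Tgfb1 made up 93.3%, 90.6%, 87.6% and 91.9% in the ground libraries R9wt D1, R9wt D5, R9del D1 and R9del D5. In the space libraries it made up 59.2%, 16.0%, 61.9% and 64.1% in the same order. Tgfb1 was thus the leading ligand in 7 of 8 libraries, and Tgfb2 led in Space_R9wt_D5 with 70.2%. The mean share of Tgfb1 was 50.3 ± 22.9% in space and 90.9 ± 2.40% on the ground (SD, n = 4 each), and the groups did not overlap (p = 0.0286 in an exact permutation test, two-sided, the smallest that 4 against 4 allows, and p = 0.171 after adjustment over the 30 share comparisons made). The share of Tgfb3 was between 0.869% and 2.82% on the ground and between 3.57% and 33.8% in space, also without overlap and with the same exact permutation p of 0.0286 (0.171 after adjustment). Neither share thus passed after adjustment. Summed over the 3 ligands, the ground libraries held between 3.35 and 7.90 CPM per kb and the space libraries between 1.01 and 2.28. Shares need no scaling between libraries, and they fall for one member when another rises.

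**Figure D2:**
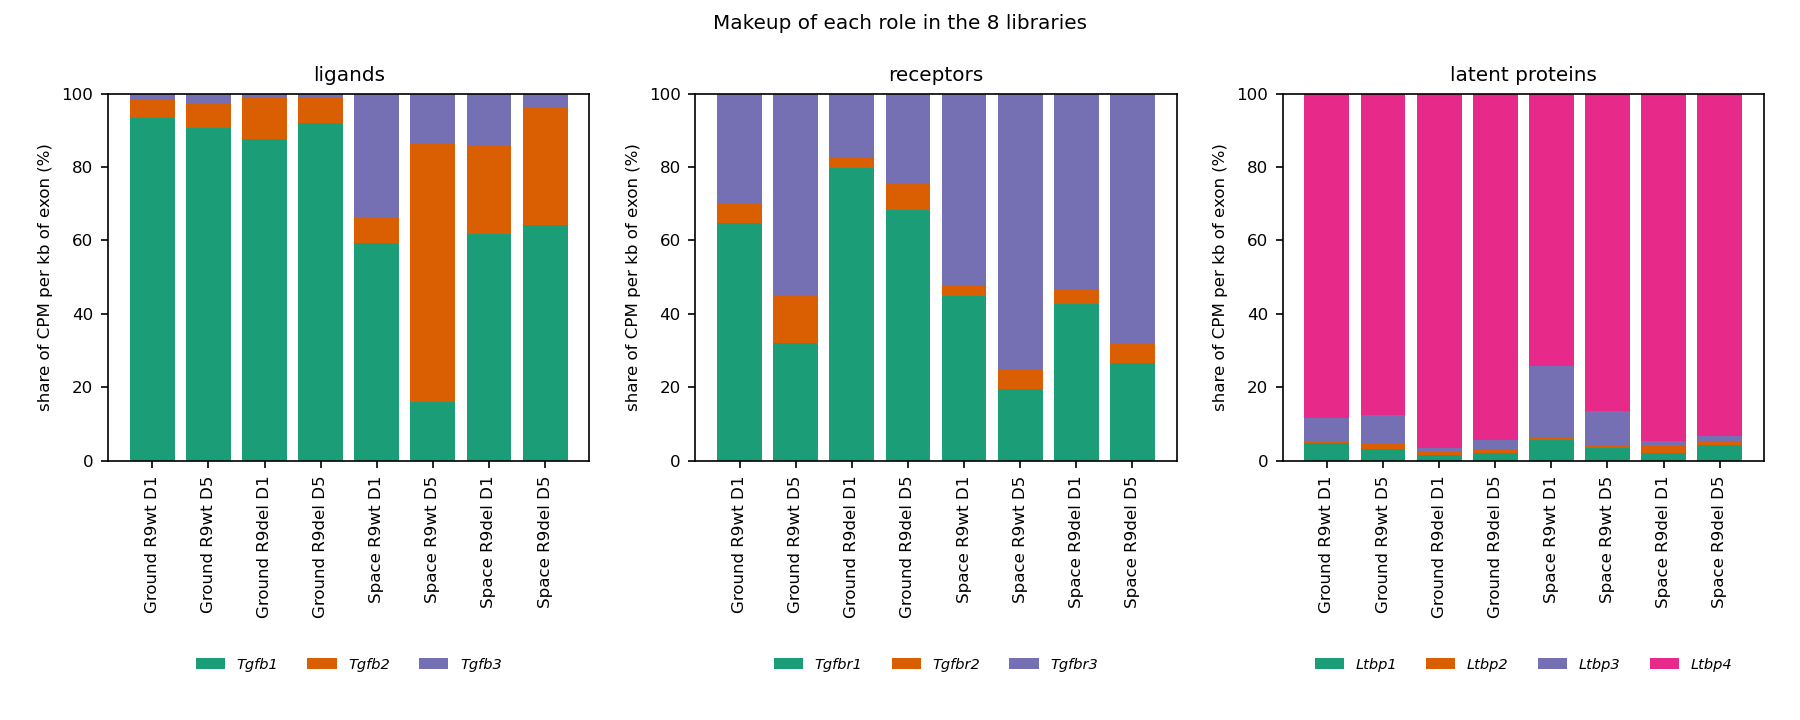
Share of each gene in the summed CPM per kb of exon of its role (ligands, receptors, latent proteins), in percent, for each of the 8 libraries, which are not replicated. Tgfb1 makes up 87.6% or more of the ligands in each ground library and 64.1% or less in each space library, and Ltbp4 makes up 74.2% or more of the latent proteins in every library.

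Of the receptors, Tgfbr3 differed most between space and ground. On the ground it measured 11.3 CPM in R9wt D1, 25.4 in R9wt D5, 6.14 in R9del D1 and 6.59 in R9del D5. In space it measured 22.7, 70.4, 25.0 and 45.2 CPM in the same conditions. The groups overlapped through Ground_R9wt_D5 alone, which was above Space_R9wt_D1 and Space_R9del_D1. The mean was 40.8 ± 22.2 CPM in space and 12.4 ± 9.02 CPM on the ground (SD, n = 4 each), and each pair was higher in space, by 2.01-fold and 2.77-fold in R9wt and by 4.06-fold and 6.86-fold in R9del. The log2 fold change was 1.72 (SE 0.53) with an adjusted p of 0.0991 in edgeR. The unadjusted threshold with a fold change of at least 2 in that direction was met by 2.58% of all genes tested, and an adjusted p under 0.05 by 1.00%.

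The call for Tgfbr3 depended on the fit, and it was past the adjusted threshold in 6 of 18 alternatives. Blocking on the matched pairs gave a log2 fold change of 1.81 and an adjusted p of 0.0124, edgeR's exact test 0.0273 and DESeq2 0.0105, and without Ground_R9wt_D5 the values were 2.35 and 0.0206 (edgeR). With both R9wt D5 libraries left out, those with the high keratin level, they were 1.95 and 0.0335. The interaction of location and genotype was not past the threshold (1.07, SE 0.56, adjusted p = 1, edgeR). The 2 libraries with the highest level of Tgfbr3 were the D5 libraries from space, which are also those with the highest sums of primitive or parietal endoderm markers. Of these 10 markers, none was at 0 in any library, the sums ranged from 753 to 2799 CPM in space and from 612 to 1104 CPM on the ground, and their part in the result was not tested. The sums come mostly from Sparc, Lama1 and Col4a1. The median log2 fold change of the 10 in space was 1.16, against 0.01 over all genes. By a fold change of at least 2 with an unadjusted p under 0.05, 3 were higher (Pdgfra, Lama1 and Col4a1) and 1 was lower. Pdgfra held 20.9 and 25.8 CPM in the D5 libraries from space against 2.98 to 9.96 CPM in the other 6. The lower marker was Sox17, the 1 past the adjusted threshold (0.0597 to 0.770 CPM in space against 2.42 to 6.11 CPM, adjusted p = 0.0181 with edgeR). The summed fibroblast markers, a list that also holds Pdgfra, were higher in space in every matched pair too, and their part was not tested.

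The signalling receptors showed no difference between space and ground past either threshold. Tgfbr1 measured 24.3, 14.8, 28.5 and 18.1 CPM on the ground and 19.4, 18.3, 20.0 and 17.7 CPM in space, in the order R9wt D1, R9wt D5, R9del D1 and R9del D5. The space libraries were the closer together, within 17.7 to 20.0 CPM, and lay inside the range of the ground libraries (log2 fold change -0.18, SE 0.26). Tgfbr2 measured 2.40, 7.25, 1.38 and 2.32 CPM on the ground and 1.55, 6.11, 2.47 and 4.39 CPM in space. It was lower in space in both R9wt pairs and higher in both R9del pairs (log2 fold change 0.12, SE 0.60), with an interaction of 1.28 (SE 0.69, adjusted p = 1, edgeR). As shares of the receptors, Tgfbr1 led in 3 of 4 ground libraries with 64.7% to 79.7%, and Tgfbr3 led in Ground_R9wt_D5 (55.2%) and in all 4 space libraries (52.2% to 75.1%). The share of Tgfbr3 was 62.1 ± 11.3% in space and 31.8 ± 16.5% on the ground (SD, n = 4 each), with p = 0.0857 in the exact permutation test.

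Among the latent proteins no member differed between space and ground past either threshold. Ltbp4 was lower in space in all 4 pairs, but by no more than 1.30-fold (log2 fold change -0.20, SE 0.23), and after correction for window GC content the value was 0.14. Ltbp1 was higher in space in all 4 pairs, with 13.5, 9.16, 6.37 and 7.02 CPM on the ground and 14.2, 9.26, 7.42 and 12.4 CPM in space (log2 fold change 0.26, SE 0.34). Ltbp2 gave 0.17 (SE 0.57) and Ltbp3 0.68 (SE 0.80), the latter with a value of -0.19 when Space_R9wt_D1 was left out. A higher level in space without overlap was found for 5.06% of all genes and for none of the 10 members.

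**Figure D3:**
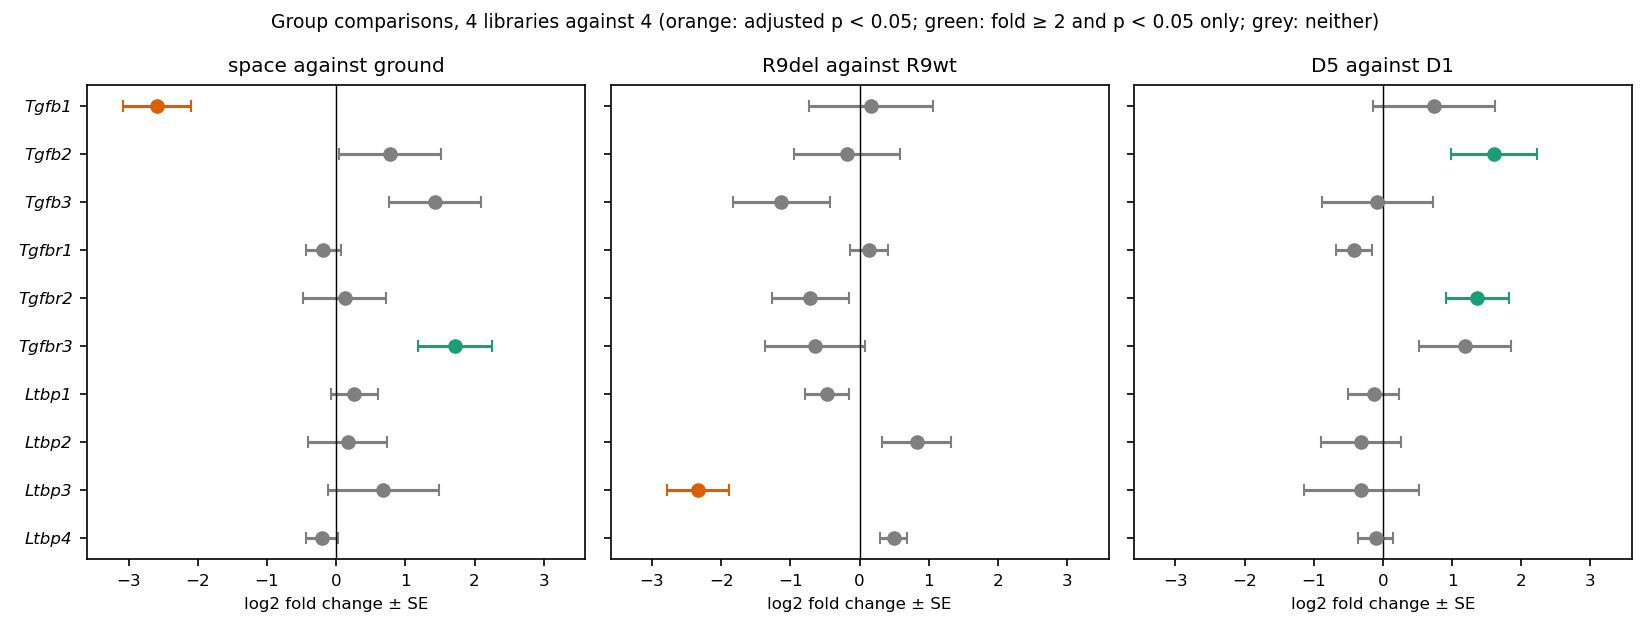
Log2 fold change with its standard error (edgeR's quasi-likelihood test, 4 libraries against 4) of each gene in the comparisons of space with ground, R9del with R9wt and D5 with D1. Tgfb1 at -2.59 (space) and Ltbp3 at -2.34 (R9del) are the values with an adjusted p under 0.05. Tgfbr3 in space and Tgfb2 and Tgfbr2 at D5 met only the fold change of at least 2 with an unadjusted p under 0.05.

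The comparison of R9del with R9wt asked what differed with the loss of Rad9, a subunit of the clamp that senses DNA damage. Ltbp3, a latent protein that binds the propeptide of TGF-beta and is known for its part in bone and tooth growth, was lower in every R9del library. Ltbp4, by far the most abundant latent protein and known for its part in elastic fibre assembly, was higher in every R9del library by a small margin. No ligand or receptor passed either threshold in the comparison without the block. Blocked on the matched pairs, Tgfb3 was lower in R9del by a fold change of at least 2 with an unadjusted p under 0.05 (log2 fold change -1.29, adjusted p = 0.143 with edgeR). By that rule 1555 of the 20544 genes tested were lower in R9del with the block.

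Ltbp3 measured 8.32 CPM in Ground_R9wt_D1, 10.9 in Ground_R9wt_D5, 24.5 in Space_R9wt_D1 and 12.3 in Space_R9wt_D5. In R9del the same conditions gave 1.90, 4.59, 2.44 and 2.13 CPM. The groups did not overlap. The mean was 2.77 ± 1.24 CPM in R9del and 14.0 ± 7.18 CPM in R9wt (SD, n = 4 each), with a log2 fold change of -2.34 (SE 0.45, adjusted p = 0.0415 with edgeR's quasi-likelihood test). Within pairs Ltbp3 was lower in R9del by 4.38-fold in Ground D1, 2.38-fold in Ground D5, 10.02-fold in Space D1 and 5.75-fold in Space D5. The difference was the larger in space at each duration, and the interaction of location and genotype was not past the threshold (-1.44, SE 0.78, adjusted p = 1, edgeR). The sum of 5 neural markers was also set apart by genotype, with 102 to 133 CPM in R9del and 27.0 to 48.0 CPM in R9wt, with at most 1 marker at 0 in a library, and their part in the result was not tested. That separation came from Tubb3, the 1 marker of the list past the adjusted threshold (72.1 to 115 CPM in R9del, 6.24 to 26.8 CPM in R9wt), whereas Zic1 was at 0 to 0.537 CPM in R9del and 0.573 to 3.27 CPM in R9wt (log2 fold change -2.26, adjusted p = 0.228 with edgeR).

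The adjusted p of Ltbp3 lay close to its threshold. It remained under 0.05 in 7 of 9 alternatives with all libraries, the exceptions being no filter on low counts (0.0541) and the correction for exon GC content (0.0528). Leaving out single libraries gave log2 fold changes between -2.67 and -1.91 and adjusted p between 0.0447 and 0.127 in edgeR, under 0.05 only without Ground_R9wt_D1. Without Ground_R9wt_D5, Ground_R9del_D1, Space_R9wt_D1 or Space_R9del_D1, 0 genes of the whole table passed, so those losses are not particular to Ltbp3. Blocked on the matched pairs the adjusted p of Ltbp3 was 0.0166. An adjusted p under 0.05 with a lower level in R9del was found for 0.764% of all genes tested, a fold change of at least 2 with an unadjusted p under 0.05 in that direction for 7.63%, and no overlap in that direction for 7.20%. Of the exon bases of Ltbp3, 2.04% overlap exons of another gene. Ltbp3 shares chromosome 19 with the deleted gene. An effect of the altered locus on its neighbours and the loss of Rad9 cannot be told apart here, and neither was tested.

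Ltbp4 measured 149 CPM in both R9wt ground libraries, 115 in Space_R9wt_D1 and 138 in Space_R9wt_D5. The R9del libraries gave 222 and 189 CPM on the ground and 202 and 162 CPM in space, at D1 and D5. The R9del libraries thus lay above the R9wt libraries without overlap, by 1.18-fold to 1.76-fold within pairs. The log2 fold change was 0.49 (SE 0.19) and the adjusted p 0.195 with edgeR. A higher level in R9del without overlap was found for 7.07% of all genes, an adjusted p under 0.05 for 1.04% and the fold change of at least 2 with an unadjusted p under 0.05 for 6.17%. As a share of the latent proteins, Ltbp4 made up 94.7 ± 1.35% in R9del and 84.1 ± 6.69% in R9wt, and Ltbp3 1.70 ± 0.789% and 10.8 ± 6.06% (SD, n = 4 each). Neither share overlapped between genotypes (p = 0.0286 for each in the exact permutation test, again the smallest possible, and 0.171 after the same adjustment).

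The other latent proteins overlapped between the genotypes. Ltbp1, a carrier of the latent ligands, was lower in R9del in 3 of 4 pairs (log2 fold change -0.47, SE 0.32). Ltbp2, which unlike its relatives does not bind the latent ligand, was higher in 3 of 4 (0.82, SE 0.50). Ltbp2 measured 1.15, 2.95, 1.24 and 1.11 CPM in R9wt and 2.26, 2.06, 5.29 and 1.83 CPM in R9del, in the order Ground D1, Ground D5, Space D1 and Space D5. Its counts may hold reads of other genes, since 9.33% of its exon bases overlap exons of another gene and 10.3% of the stretches of 50 bases in its transcripts also occur in another coding gene. Of the ligands, Tgfb3 was lower in R9del in all 4 pairs, by 1.44-fold to 3.97-fold (log2 fold change -1.13, SE 0.71). Tgfb1 differed by 0.17 (SE 0.90) and Tgfb2 by -0.18 (SE 0.77), with a value of 1.08 for Tgfb2 without Space_R9wt_D5. The receptors gave 0.14 (SE 0.27) for Tgfbr1, -0.71 (SE 0.55) for Tgfbr2 and -0.65 (SE 0.72) for Tgfbr3.

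The comparison of D5 with D1 gave no gene that passed adjustment with the quasi-likelihood test of edgeR, and so none of the 10 members. At an unadjusted p under 0.05 there were 898 genes, and edgeR's exact test called 36 genes and DESeq2 96 genes after adjustment, none of them a member. The background was therefore 0% for the adjusted threshold in either direction. Tgfb2 and Tgfbr2 met the fold change of at least 2 with an unadjusted p under 0.05 in the direction of D5, a threshold met there by 2.43% of all genes and in the direction of D1 by 1.06%. Blocked on the matched pairs, only Tgfbr2 met it. The log2 fold change of Tgfb2 lay between 1.51 and 1.63 in the alternatives with all libraries.

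Tgfb2 was 1.17, 1.85, 0.343 and 1.88 CPM at D1 and 2.03, 2.76, 7.75 and 3.47 CPM at D5, in the order Ground_R9wt, Ground_R9del, Space_R9wt and Space_R9del. Every D5 library was above every D1 library, but the step was 22.6-fold in Space_R9wt and only 1.49-fold to 1.85-fold in the other pairs (log2 fold change 1.61, SE 0.62, adjusted p = 0.9996 with edgeR). Scaled by library size alone the groups overlapped. Tgfbr2, the receptor that binds the ligand first, measured 2.40, 1.38, 1.55 and 2.47 CPM at D1 and 7.25, 2.32, 6.11 and 4.39 CPM at D5 in the same order. It was higher at D5 in all 4 pairs, by 3.03-fold and 3.93-fold in R9wt and by 1.69-fold and 1.78-fold in R9del (log2 fold change 1.36, SE 0.45, adjusted p = 0.9996 with edgeR). The summed trophoblast markers were highest in the R9wt D5 libraries, where Krt18 made up most of the sum, and Tgfbr2 was highest there too. Single markers differed from that order, and Tfap2c was highest in Ground_R9del_D5 (179 CPM). Tgfb2 was highest in Space_R9wt_D5, but Ground_R9wt_D5, with the second highest marker sum, had the lowest Tgfb2 of the D5 libraries (2.03 CPM). Over that list of 8 the sums were 514 to 2902 CPM at D5 and 201 to 374 CPM at D1, with 1 marker at 0 in 1 library, and their part in the result was not tested. The median log2 fold change of the 7 tested was 2.16. Of these 7, 5 were higher and 0 lower by a fold change of at least 2 with an unadjusted p under 0.05. Sums of the 10 endoderm markers were 929 to 2799 CPM at D5 and 612 to 1024 CPM at D1. Their median log2 fold change was 1.32, against -0.01 over all genes. By a fold change of at least 2 with an unadjusted p under 0.05, 5 were higher and 0 lower. Over all genes 2.43% were higher by that rule. The highest endoderm sums, in Space_R9del_D5 (2799 CPM) and Space_R9wt_D5 (2471 CPM), fell in the libraries with the highest Tgfb2. Their part was not tested either. Sums of 7 mesoderm markers were 26.3 to 118 CPM at D5, highest in Space_R9wt_D5, and 8.97 to 34.5 CPM at D1. The median log2 fold change of the mesoderm markers was 0.43. By the same rule 1 was higher and 0 lower, and their part was not tested.

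Tgfbr1 lay the other way, with 24.3, 28.5, 19.4 and 20.0 CPM at D1 and 14.8, 18.1, 18.3 and 17.7 CPM at D5. The groups did not overlap, but the difference was small and did not pass the test (log2 fold change -0.42, SE 0.26, adjusted p = 0.9996 with edgeR). No overlap was found for 1.68% of all genes in the direction of D5 and for 1.17% in the direction of D1. Tgfbr3 was higher at D5 in all 4 pairs, by 1.07-fold to 3.11-fold (log2 fold change 1.18, SE 0.67). The remaining 6 members had log2 fold changes between -0.32 and 0.73. Of the 30 interaction values (location by genotype, location by duration and genotype by duration), none had an unadjusted or adjusted p under 0.05 in edgeR or an adjusted p under 0.05 in DESeq2. The value nearest to a call was that of Ltbp3 in location by duration (-1.61, SE 0.71, adjusted p = 0.743 with edgeR).

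The pathway around these genes was described by lists written from general knowledge, in which a few genes such as Smad7 stand in more than 1 list. Of 19 Smads and regulators, all tested, 1 was higher and 2 lower in space at an adjusted p under 0.05, against 1.00% higher and 5.31% lower over all genes tested, and the median log2 fold change was 0.02 against 0.01. Strap, a receptor-binding WD repeat protein, held between 40.4 and 74.7 CPM in space and between 257 and 346 CPM on the ground (log2 fold change -2.41, SE 0.24, adjusted p = 0.000251 with edgeR). Fkbp1a, which binds the inactive type I receptor, held between 12.9 and 51.2 CPM in space and between 171 and 217 CPM on the ground (-2.38, SE 0.38, adjusted p = 0.00440). Usp15, a deubiquitinase of receptor complexes and Smads, was higher in space, at 150 to 268 against 83.3 to 117 CPM (0.93, SE 0.22, adjusted p = 0.0358 with edgeR). The Usp15 call was lost in 9 of 18 alternatives, and those of Strap and Fkbp1a in none. Copies of these genes elsewhere in the genome were not checked.

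Of 9 co-receptors and binding proteins, 7 were tested and 1 was lower in space, where 5.31% of all genes were called lower. That gene was Bambi, a pseudoreceptor without a kinase domain, with 1.34 to 2.67 CPM in space and 27.0 to 55.1 CPM on the ground (log2 fold change -4.22, SE 0.35, adjusted p = 9.46e-05 with edgeR), and its call held in all 18 alternatives. Of 25 target genes, 24 were tested and 1 was lower in space, a share near that of all genes: Junb, a subunit of the AP-1 factor and an early target of Smads, with 11.9 to 31.4 CPM against 87.3 to 185 CPM (-2.81, SE 0.34, adjusted p = 0.000805). The median over the targets was 0.18, and Smad7, Skil and Pmepa1, feedback regulators that the pathway itself induces, did not pass. Smad7 was not level, since its direction differed by day. At D1 it held 3.64 (R9wt) and 1.02 CPM (R9del) in space against 30.1 and 14.8 CPM on the ground. At D5 the values were 39.2 and 35.3 CPM in space against 4.98 and 23.6 CPM on the ground. Of 21 genes of latency, matrix and activation, 20 were tested and none passed after adjustment, with Mmp14, a membrane protease, the nearest to it (-1.09, SE 0.40, adjusted p = 0.171 with edgeR). The medians were 0.67 for the co-receptors and binding proteins, 0.36 for latency, matrix and activation and 0.22 for the 10 members, against 0.01 over all genes. By their windows, Strap (77% G and C), Fkbp1a (80.5%) and Bambi (76.5%) are in the same GC-rich bin as Tgfb1, whereas Junb (71.5%) and Usp15 (53.0%) are in poorer bins, Usp15 in the poorest.

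In R9del against R9wt, 2 of the 7 tested co-receptors and binding proteins were higher and none was lower at an adjusted p under 0.05, against 1.04% higher and 0.764% lower over all genes. Nrp1, a co-receptor for semaphorins and VEGF that also binds TGF-beta, measured 1.83 to 13.0 CPM in R9del and 0.838 to 1.26 CPM in R9wt (log2 fold change 2.93, SE 0.58, adjusted p = 0.0424 with edgeR). Endoglin (Eng), a co-receptor related to betaglycan, measured 64.3 to 123 CPM in R9del and 32.8 to 48.9 CPM in R9wt (1.34, SE 0.28, adjusted p = 0.0474). Both calls are close to the threshold: leaving out single libraries raised the adjusted p of Eng to between 0.0567 and 0.151, and that of Nrp1 lay between 0.0430 and 0.123. Without a filter on low counts the adjusted p was 0.0637 for Eng and 0.0548 for Nrp1. The call for Eng was also lost with the corrections for window GC content (0.0511) and exon GC content (0.0573), whereas that for Nrp1 held in both (0.0425 and 0.0409, edgeR). Of the 9 alternatives with all libraries, 6 thus kept the call for Eng and 8 that for Nrp1. None of the Smads and regulators, targets or genes of latency, matrix and activation passed after adjustment, and the gene with the lowest p in each list was Tgif2 (log2 fold change -0.80, adjusted p = 0.0953 with edgeR), Bhlhe40 (-1.48, 0.0573) and Mmp2 (-1.40, 0.0905). The medians were -0.33 for the members, -0.32 for latency, matrix and activation, -0.23 for co-receptors and binding proteins, -0.04 for Smads and regulators and -0.06 for targets, against -0.06 over all genes. In D5 against D1 no gene of these lists passed after adjustment, and the medians in the same order were -0.09, 0.24, -0.18, 0.06 and 0.38, against -0.01 over all genes. The lowest p among the lists were those of Itgb6, an integrin chain that activates latent TGF-beta (log2 fold change 3.48, adjusted p = 0.877 with edgeR), and Acta2, smooth muscle actin (3.71, 0.903), both highest in Space_R9wt_D5, at 2.69 and 37.2 CPM.

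**Figure D4:**
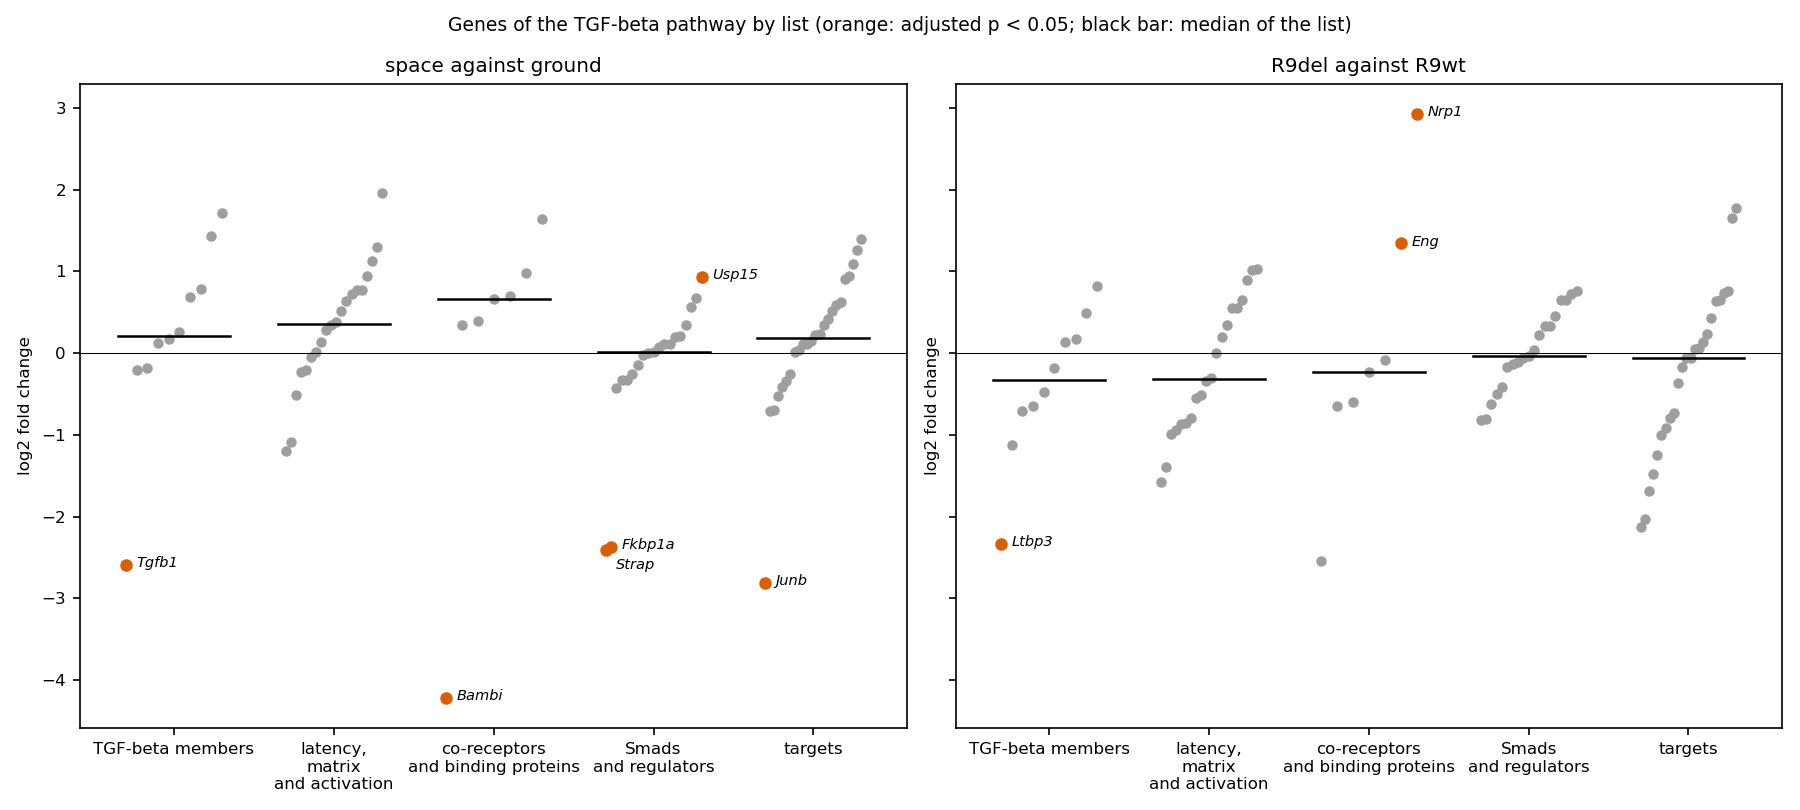
Log2 fold change of each tested gene of the pathway lists, by list, for space against ground and R9del against R9wt, with the median of each list as a black bar. Orange points passed adjustment at 0.05 (edgeR): Tgfb1, Bambi, Strap, Fkbp1a, Junb and Usp15 in space, and Ltbp3, Nrp1 and Eng in R9del.

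The genes whose log2 CPM followed the leading member of each role most closely over the 8 libraries were sought among the 15251 genes whose mean over the libraries reached 1 CPM. For Tgfb1 they were Endog (Pearson r = 0.98, Spearman rho = 1), Acot7 (0.98 and 0.95) and Ubtd1 (0.98 and 0.98). For Tgfbr3 they were Lamb1 (0.97 and 0.90), Oplah (0.97 and 0.93) and Rap1gds1 (0.96 and 0.95), and for Ltbp4 Rbm34 (0.97 and 1), Foxp4 (0.96 and 0.95) and Plagl1 (0.96 and 0.98). Without the 2 libraries farthest from the median of the member, Pearson r stayed between 0.90 and 0.99 for these 9 genes. The values describe the best of many genes over 8 libraries that share their 2 locations, 2 genotypes and 2 durations, and no test was made of them.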

How the data were processed

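RNA of 8 mESC samples was sequenced as paired reads, which the authors aligned to mm9 with TopHat2 2.0.9. The deposited counts per gene are whole numbers without normalization. The counting program, annotation and strand handling were not given in the sources used here, so overlapping and antisense genes cannot be told apart. Of 50686 identifiers, 64.6% matched the mm9 annotation used for coordinates, length and GC content.

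Libraries were scaled with TMM, genes kept with filterByExpr (minimum count 10), and groups of 4 libraries compared with the quasi-likelihood test of edgeR 4.0.16 in R 4.3.3, adjusted over all 20544 genes tested by Benjamini-Hochberg. Standard errors were derived from the F statistic, and p-values measure the spread between libraries that differ in the other 2 variables. Interactions were fitted over all 8 libraries. Log2 CPM used a prior count of 2. The fits were tested on simulated data with independent libraries and changes in the compared variable only. That test therefore does not cover effects of the other 2 variables or libraries that deviate together. The 10 genes and the lists were chosen with earlier results of these data known. Named genes are the members, Rad9a, markers, list genes past the adjusted threshold or otherwise lowest in p, and the 3 genes most like the leading member of each role. The target genes named as not passed were chosen after their values were seen.

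Matched libraries (alike in the other 2 labelled variables) deviated together in every comparison (correlations of 0.28 to 0.61, against -0.12 to -0.15 for other pairings), so fits with these pairs as a block were run. The remaining alternatives were DESeq2 1.42.0, other scalings, no filter, covariates and each library left out. Corrections for GC content (loess span 0.5) and a fit without both R9wt D5 libraries were added after seeing the data.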

Additional observations from a re-analysis of the deposited data

Results flagged for a closer look

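For 2 members, 1 library lay far from the other 3 in a group of 4, judged by Dixon's ratio of its gap to the range of the group. The ratios were taken on log2 CPM, whereas the values beside them are CPM. Ltbp2 in Ground_R9wt_D5 measured 2.95 CPM against 1.11 to 1.24 CPM in the other R9wt libraries (ratio 0.891). Tgfbr1 in Ground_R9wt_D5 measured 14.8 CPM against 17.7 to 18.3 CPM in the other D5 libraries (ratio 0.856). Both ratios exceed the 95% critical value for 4 samples, and chance gives that in about 1 in 20 of the 60 groups examined.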

How the results depend on the processing

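Depth limits Tgfb3 most, since its lowest count was 7, and the single library per condition limits every comparison. In space against ground, 1 member passed after adjustment, and 2 members (Tgfb1 with Tgfbr3) did so with edgeR's exact test, with DESeq2, with the matched pairs as a replicate block, with the other 2 variables as covariates and without both R9wt D5 libraries. Leaving out single libraries gave 1 to 2 members. By a fold change of at least 2 with an unadjusted p under 0.05, Tgfb3 was also higher in space in some alternatives. After adjustment it passed in none of its 18. In R9del against R9wt, 1 member passed, and 0 did so without a filter on low counts or with the exon GC correction, where the adjusted p of Ltbp3 was 0.0541 and 0.0528. Leaving out single libraries gave 0 to 1. By a fold change of at least 2 with an unadjusted p under 0.05, R9del against R9wt gave 1 member (Ltbp3), 2 with the replicate block (Ltbp3 with Tgfb3) and 1 to 2 without single libraries (Tgfb3 added without Space_R9del_D1, Ltbp2 without Ground_R9wt_D5). D5 against D1 gave 2 members (Tgfb2 and Tgfbr2), 1 with the replicate block (Tgfbr2) and 1 to 3 without single libraries. The block changed no other call of a member after adjustment. Over all genes the calls numbered 1297 in space against ground (2113 with covariates, 2383 with DESeq2, 838 without Ground_R9del_D5), 371 in R9del against R9wt (157 without a filter, 1440 with the exact test, 1670 with the block, 1481 with covariates, 2053 with DESeq2, 0 to 525 without single libraries) and 0 in D5 against D1 (36 with the exact test, 96 with DESeq2). The GC corrections were fitted on the 17548 annotated genes rather than on all tested, and with that for exon GC the median log2 fold change over them in space was 0.11.

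Some log2 fold changes that did not pass changed sign, and the cause was not tested. In space against ground these were Tgfb2 without both R9wt D5 libraries (-0.028), Tgfbr1 with the window GC correction (0.043), Ltbp2 with the block (-0.054) and with covariates (-0.060), and Ltbp4 with the window (0.14) and exon (0.44) GC corrections. In R9del against R9wt Tgfb2 gave 0.56 with the block and 0.30 with covariates. In D5 against D1 Tgfb3 gave 0.17 and 0.16, and Ltbp3 0.11 and 0.11, with the block and with covariates. Without single libraries, the ranges that include both signs in space against ground were -0.042 to 1.16 for Tgfb2, -0.24 to 0.84 for Tgfbr2, -0.59 to 0.42 for Ltbp2 and -0.19 to 1.06 for Ltbp3. In R9del against R9wt they were -0.63 to 0.82 for Tgfb1, -0.54 to 1.08 for Tgfb2, -0.044 to 0.27 for Tgfbr1 and -1.37 to 0.074 for Tgfbr3. In D5 against D1 they were -0.65 to 0.47 for Tgfb3, -0.31 to 0.039 for Ltbp1, -0.57 to 0.36 for Ltbp2, -0.67 to 0.81 for Ltbp3 and -0.28 to 0.039 for Ltbp4. The p of Tgfb2 in the exact permutation test of D5 against D1 was 0.0857 with scaling by library size alone.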
